A study of Mus musculus with 8 samples.

Results

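A set of 10 genes that mark T and NK cells was followed across EGFP+ and tdTomato+ cells sorted from mouse skin. The genes were Cd3d, Cd3e, Cd3g, Cd247, Thy1, Ptprcap, Klrk1, Il2rb, Nkg7 and Gzmb, taken by symbol from a table of 24421 genes; all 10 were found and all 10 passed the filter on low values. In the mice, which were C57BL/6J and carried the ROSA mTmG reporter together with Tyr:CreERT2, a Cre driven by the tyrosinase promoter and switched on by tamoxifen, a cell makes membrane tdTomato until Cre acts and membrane EGFP afterwards. The EGFP+ cells are therefore the melanocytes in the study's design and the tdTomato+ cells are the other skin cells, a bulk mixture in which T and NK cells would be found and in which a melanocyte stays if Cre did not act in it. Tamoxifen was given daily for 10 days from P21 to every mouse, hair was removed at P50, and back skin was taken at P54; the labels name back skin and not epidermis alone. The 4 groups were EGFP+ cells with UV (UVB at 150 mJ/cm2 for 3 days), EGFP+ cells without UV (mock, normal light), tdTomato+ cells with UV and tdTomato+ cells without UV. Each group had 2 libraries from 2 mice, both populations came from the same 4 mice, and the genotype and tamoxifen were shared by all groups.

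The T cell receptor binds antigen but signals through the CD3 chains: CD3 gamma, delta and epsilon, encoded by Cd3g, Cd3d and Cd3e, pair with one another, and the zeta chain, encoded by Cd247, carries most of the signalling motifs. Mouse epidermis is known for dendritic epidermal T cells, gamma delta T cells that sit between keratinocytes, carry Thy-1 and CD3 at the surface and also bear NKG2D, the activating receptor encoded by Klrk1 that recognises stress ligands on neighbouring cells. NK cells share NKG2D, the IL-2 and IL-15 receptor beta chain and the granule proteins, but lack surface CD3; Cd247 is used by both.

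Cd3g, Cd3d and Cd3e lie side by side on chromosome 9 of mm10 (GRCm38), within 40056 bases from the first base of Cd3g to the last of Cd3e, and Cd3g and Cd3d are divergent, with starts 1355 bases apart. In the GENCODE M21 annotation Cd3g spans chr9:44969572-44980431 on the minus strand, Cd3d chr9:44981786-44987339 on the plus strand and Cd3e chr9:44998740-45009627 on the minus strand. Cd247 lies apart, at chr1:165788681-165877277 on the plus strand. The library kit does not mark strand, so reads from overlapping genes cannot be told apart. Of 5329 exon bases of Cd247, 3007 lie opposite Pou2f1. Of 1611 exon bases of Ptprcap (chr19:4153604-4156751, plus strand), 1224 lie opposite Rps6kb2 and 432 on the side of Coro1b. The 250 bases before the RefSeq start of the 4 CD3 chain genes, and of Gzmb, are printed. The CD3 chains moved together in these libraries, while Gzmb had 0 reads in tdTomato+ cells and 25 in EGFP+ cells. With so few Gzmb reads, no contrast of promoters is drawn from this. The RefSeq promoter table of build GRCm38.p6 held 7 of the 10 members. Capitals mark AGGAAG or its reverse complement CTTCCT, the core of ETS family sites, and in Gzmb TGTGGT, the core of RUNX sites. The windows are chr9:44980432-44980681 (minus strand) for Cd3g, chr9:44981536-44981785 (plus strand) for Cd3d, chr9:45009612-45009861 (minus strand) for Cd3e, chr1:165788431-165788680 (plus strand) for Cd247 and chr14:56262335-56262584 (minus strand) for Gzmb.
Cd3g: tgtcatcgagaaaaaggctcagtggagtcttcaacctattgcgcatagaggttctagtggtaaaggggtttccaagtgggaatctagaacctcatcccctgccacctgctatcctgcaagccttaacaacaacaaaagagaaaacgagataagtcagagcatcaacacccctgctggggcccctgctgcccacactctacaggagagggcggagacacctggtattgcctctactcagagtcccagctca
Cd3d: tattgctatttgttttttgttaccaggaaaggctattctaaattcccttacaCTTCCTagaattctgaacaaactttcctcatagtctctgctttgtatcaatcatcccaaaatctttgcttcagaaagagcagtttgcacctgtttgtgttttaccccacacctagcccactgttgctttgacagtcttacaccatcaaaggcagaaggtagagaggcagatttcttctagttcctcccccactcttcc
Cd3e: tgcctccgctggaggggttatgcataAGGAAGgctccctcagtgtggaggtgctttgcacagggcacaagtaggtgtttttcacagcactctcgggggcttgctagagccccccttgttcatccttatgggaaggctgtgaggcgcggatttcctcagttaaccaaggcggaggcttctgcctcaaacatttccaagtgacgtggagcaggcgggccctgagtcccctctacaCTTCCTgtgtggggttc
Cd247: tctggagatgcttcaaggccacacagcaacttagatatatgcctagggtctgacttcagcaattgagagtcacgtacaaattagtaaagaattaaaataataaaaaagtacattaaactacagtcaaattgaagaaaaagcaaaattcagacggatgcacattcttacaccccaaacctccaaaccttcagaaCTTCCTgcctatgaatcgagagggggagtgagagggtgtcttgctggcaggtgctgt
Gzmb: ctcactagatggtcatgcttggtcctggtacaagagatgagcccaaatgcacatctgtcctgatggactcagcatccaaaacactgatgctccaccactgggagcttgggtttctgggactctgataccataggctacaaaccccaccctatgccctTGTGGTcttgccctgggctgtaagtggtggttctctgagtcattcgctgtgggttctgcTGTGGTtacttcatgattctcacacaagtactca

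The ETS core stood in 4 of the 7 member windows (Cd3d, Cd3e, Cd247 and Nkg7), against 29.5% of 32851 promoter windows of this length, searched on both strands. It began 198 bases before the start in Cd3d, 224 and 17 bases before it in Cd3e and 57 bases before it in Cd247. The Cd3g window held none. Positions count from the RefSeq start, which differs from the GENCODE start for Cd3e, Nkg7 and Gzmb. By GENCODE, Cd3e starts at chr9:45009627, inside its printed window, so most of the match at 17 bases lies within the gene. The RUNX core stood in 3 of 7 (Nkg7, Klrk1 and Gzmb), against 14.0% of all windows, and began 93 and 34 bases before the start in Gzmb. The E-box CAGCTG (13.0% of windows) and TATAAA (12.4%) stood in 0 of the 7. These are matches of letters only.

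Values are normalized reads, the whole reads of a library divided by its size factor, and 1 read was worth 0.832 to 1.43 normalized reads. Library totals ran from 11186363 to 16711981 reads. Differences are log2 of the value plus 1, with the moderated standard error, tested by limma over 18070 genes at a Benjamini-Hochberg adjusted p of 0.05; folds of low genes are understated on this scale. Mouse 1, without UV, differed from the other mice in sex-linked reads, with 477 and 1103 Xist reads in its EGFP+ and tdTomato+ libraries against at most 4 elsewhere. Its Y-linked reads were 4 and 9, against 2253 to 3629 elsewhere. The labels give no sex. Both UV mice were on the Y-linked side, so this difference between mice is partly confounded with UV. All 8 keratinocyte markers were lower and all 8 melanocyte markers higher in EGFP+ than in tdTomato+ cells, as the labels have it. The melanocyte markers summed to 38870 to 45310 RPM (reads per 1000000 library reads) in EGFP+ libraries, against 1517 and 2898 in tdTomato+ libraries with UV and 363 and 163.9 in those without UV.

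EGFP+ cells held almost no CD3 reads. The 4 chains had 3 reads over the 4 EGFP+ libraries, against 1306 over the 4 tdTomato+ libraries, and their summed level in EGFP+ cells was 0.199% of that in tdTomato+ cells. In a bulk library, fewer T or NK cells and less RNA per cell cannot be told apart. Cd3e and Cd247 had 0 reads in every EGFP+ library, which puts them at least 78.7-fold and at least 59.2-fold lower than in tdTomato+ cells, from a floor of 3 reads over the group. Cd3g had 2 EGFP+ reads, both in the second library without UV, and a ratio of tdTomato+ to EGFP+ levels of 448 (124 to 3708, a 95% exact interval for counting error only). Cd3d had 1 EGFP+ read, in the second library with UV, and a ratio of 157 (27.8 to 6257). The keratinocyte markers stood at 0.298% and the fibroblast markers at 1.03% of their tdTomato+ level in the same comparison; the part of carried-over cells or RNA in the few EGFP+ reads was not tested.

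In tdTomato+ cells the CD3 chains were read in 3 of 4 libraries and all but missing from the fourth. Cd3g had 62.3 and 1.86 normalized reads in tdTomato+ cells with UV and 372.7 and 495.3 in tdTomato+ cells without UV, and its 2 reads in the lower UV library were the only CD3 reads there. Cd3e had 19.2 and 0 with UV, against 119.3 and 95.6 without UV. Cd3d had 20.2 and 0 with UV, against 56.7 and 85.6 without UV. For these chains the mice without UV were higher than either UV mouse, and the second UV mouse was at the floor. Cd247 had 30.2 and 0 with UV, against 87.1 and 51.4 without UV. All 4 chains together had 146 reads in tdTomato+ cells with UV, 144 of them from 1 mouse, and 1160 in tdTomato+ cells without UV.

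**Figure D1:**
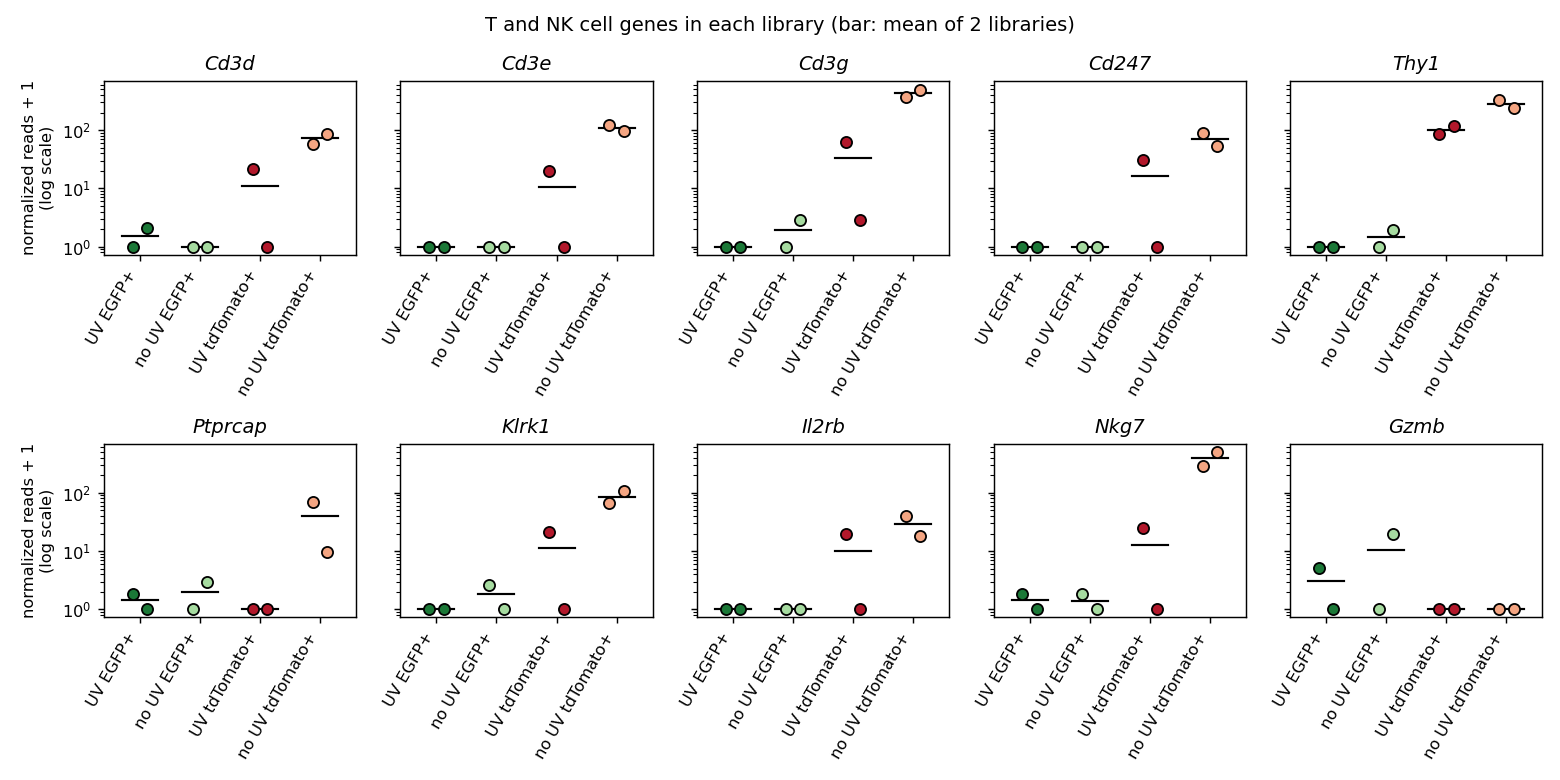
Normalized reads plus 1 on a log axis for the 10 genes in each of the 8 libraries; each point is a library, each bar the mean of the 2 libraries of a group, and the groups are EGFP+ with and without UV and tdTomato+ with and without UV. EGFP+ libraries sit at or near the floor for every gene but Gzmb, and the second UV tdTomato+ library sits there for every gene but Thy1.

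Thy1 and Ptprcap belong to the cell surface of T cells in different ways. Thy1 encodes Thy-1, a lipid-anchored glycoprotein of mouse T cells that fibroblasts also carry; Ptprcap encodes a small protein that binds the phosphatase CD45. Thy1 had 1 read in all EGFP+ libraries, against 83.4 and 115.9 normalized reads in tdTomato+ cells with UV and 327.7 and 238.4 without UV, a ratio of tdTomato+ to EGFP+ levels of 807 (144 to 31910). It was the only member whose EGFP+ and tdTomato+ libraries did not overlap over all mice, against 18% of tested genes lower without overlap. It was the only member with more than 2 reads in the second UV tdTomato+ library. Fibroblast markers summed to 903.8 RPM there, against 682.6 in the other UV tdTomato+ library and 1247 and 1006 in those without UV. The part of fibroblasts in the Thy1 reads was not tested. Ptprcap had 0 reads in both tdTomato+ libraries with UV and 68.5 and 8.56 normalized reads without UV, so 1 mouse held most of its signal.

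The NK cell and cytotoxic genes split. Nkg7 encodes a membrane protein of cytotoxic granules, and had 23.8 and 0 normalized reads in tdTomato+ cells with UV and 289.5 and 508.1 without UV. Klrk1, the NKG2D receptor, had 20.2 and 0 with UV and 64.6 and 105.6 without UV. Il2rb, the shared beta chain of the IL-2 and IL-15 receptors, had 18.3 and 0 with UV and 39.1 and 17.1 without UV, and its groups overlapped. All 3 had their 0 in the second UV library, which had 2 CD3 reads.

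Gzmb, which encodes the serine protease granzyme B, had the opposite distribution. It had 4.19 and 0 normalized reads in EGFP+ cells with UV and 0 and 19.0 in EGFP+ cells without UV, from 5 and 20 whole reads, against 0 reads in all 4 tdTomato+ libraries. The EGFP+ minus tdTomato+ difference of 1.68 ± 0.97 did not pass (adjusted p = 0.239, limma), and the level in tdTomato+ cells was at least 7.42-fold lower by the floor of 3 reads. Prf1, the pore protein perforin, had 0 reads in EGFP+ cells and 48 in tdTomato+ cells, and Gzmc, another granzyme, had 0 and 60.

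Per kilobase of exon, Nkg7 was the highest member in tdTomato+ cells without UV at 436 ± 169 normalized reads (SD, n = 2), followed by Cd3g at 133 ± 26.5 and Thy1 at 94.5 ± 21.1. Cd3d (39.2 ± 11.3), Cd3e (26.3 ± 4.11) and Ptprcap (23.9 ± 26.3) came next. Cd247 (13.0 ± 4.73), Klrk1 (11.9 ± 4.04) and Il2rb (6.56 ± 3.63) were lowest among members with reads there, as Gzmb had none. Lengths count all exon bases, also those that Cd247 and Ptprcap share with other genes, so the ranks of both are uncertain. The libraries of neighbours in this order did not overlap from Nkg7 down to Cd3e, and those of each neighbouring pair from Cd3e down to Il2rb did. With UV, Thy1 led at 33.3 ± 7.68 per kilobase, and Nkg7 averaged 13.0 ± 18.4.

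Against tdTomato+ cells over all mice, 8 of the 10 genes were lower in EGFP+ cells and 0 were higher, where 19.2% of all tested genes were lower, 9.66% higher and 28.9% changed in either direction. The differences were -7.14 ± 0.71 for Thy1 (adjusted p = 0.000169, limma here and below), -5.87 ± 1.08 for Cd3g (0.00398), -5.01 ± 1.09 for Nkg7 (0.00898) and -4.46 ± 0.98 for Cd3e (0.00972). Cd247, Cd3d, Klrk1 and Il2rb ran from -4.28 to -3.44, with adjusted p from 0.0171 to 0.0268. Ptprcap was at -1.74 ± 0.80 (0.142). Without both libraries of mouse 1 the count was 1 of 10. Leaving out single libraries gave 2 without either no UV EGFP+ library or the first no UV tdTomato+ library, 3 without the second no UV tdTomato+ library and 5 without the second UV EGFP+ library.

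Within the mice without UV, 9 of 10 genes were lower in EGFP+ cells, against 12.5% of tested genes, and the EGFP+ and tdTomato+ libraries of these 9 did not overlap, against 34.2% of tested genes. Nkg7 led at -8.15, followed by Cd3g at -7.98, Thy1 at -7.65 and Cd3e at -6.75, and Ptprcap was the smallest at -3.92 (adjusted p = 0.0426, limma, and 0.0727 with mouse as a block). By edgeR and by DESeq2 on the recovered reads 6 were lower, and without both libraries of mouse 1, 1 was. Leaving out a single library gave 1 without either no UV EGFP+ library, 1 without the first no UV tdTomato+ library and 2 without the second. Each such fit leaves 1 library in a group, which is assumed to vary like the other groups. Within the mice with UV, only Thy1 passed, at -6.63 ± 1.00 (adjusted p = 0.00304), against 12.9% of tested genes lower, and Cd3g stood at -3.75 ± 1.52 (0.132). Without the second UV tdTomato+ library 4 genes passed with UV, under the same assumption for the 1 UV tdTomato+ library kept.

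**Figure D2:**
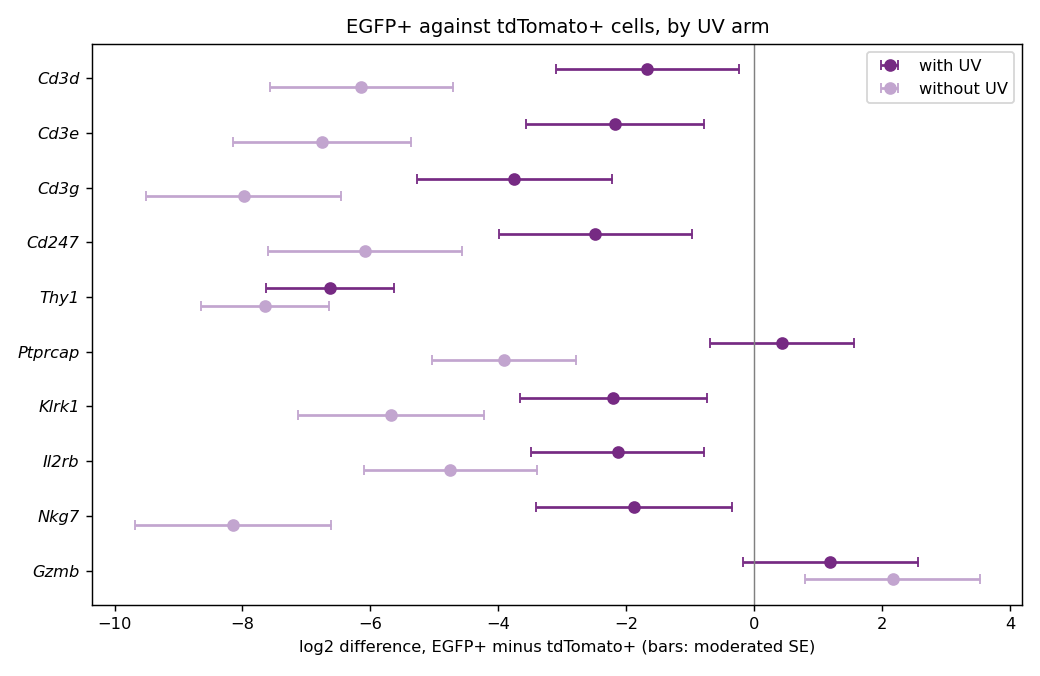
Log2 difference, EGFP+ minus tdTomato+, for each gene in mice with UV and without UV; points are the fitted difference and bars the moderated standard error. Without UV the 9 genes other than Gzmb lie between -8.15 and -3.92, and with UV Thy1, at -6.63, is the lowest.

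In tdTomato+ cells, 9 of the 10 genes had a negative fitted difference with UV, and none passed the test over all genes. At an adjusted p of 0.05, 0 of 10 changed, against 0.559% of tested genes in either direction and 0.21% lower; edgeR called 0 and DESeq2 called 1, Nkg7 (adjusted p = 0.00602). At an unadjusted p under 0.05 (limma), 7 of 10 were lower, against 6.64% of tested genes. The spread in this fit was shared over all 4 groups, and EGFP+ libraries sat near the floor for every member but Gzmb. The standard errors and p-values of the members can therefore understate their spread among tdTomato+ libraries, so these shares are not like for like. The median over the members was -4.06, against -0.09 over all tested genes. Libraries with UV lay below those without it, with no overlap, for 8 of 10 genes, against 24.5% of tested genes. The difference was at or below -2 for 8 of 10 genes, against 4.94% of tested genes. Klrk1, Cd3d, Cd247 and Il2rb lay above -2 without the second UV tdTomato+ library.

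The largest difference was that of Nkg7, -6.27 ± 1.54 (adjusted p = 0.137, limma). Cd3g stood at -5.00 ± 1.52 (0.208), Ptprcap at -4.69 ± 1.13 (0.132) and Cd3e at -4.58 ± 1.39 (0.208). Klrk1, Cd3d and Cd247 ran from -4.18 to -3.60 and Il2rb was at -2.62. Thy1 was the smallest of the lower genes at -1.50 ± 1.00 (0.566), and Gzmb had no reads in either group. Ptprcap, with 0 reads with UV and 76 without, was at least 31.9-fold lower with UV, but 70 of the 76 reads came from mouse 1. Without that library, left out after the data were seen, the bound was at least 6.19-fold. Most Ptprcap exon bases overlap other genes, and the part of those genes in these counts was not tested. For Nkg7, Klrk1, Il2rb and the CD3 chains the size turned on the second UV library. Without it, with the first UV library assumed to vary like the other groups, Nkg7 stood at -3.95, Cd3g at -2.77 and Cd3e at -2.41. Klrk1 then stood at -1.98, Cd3d at -1.74, Cd247 at -1.12 and Il2rb at -0.48. In the same fit Thy1 stood at -1.73 and Ptprcap at -4.69, and 0 of 10 passed. Without both libraries of mouse 1, Nkg7 stood at -6.68, Cd3g at -5.21, Cd3e at -4.42 and Ptprcap at -3.26, and 0 of 10 passed.

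**Figure D3:**
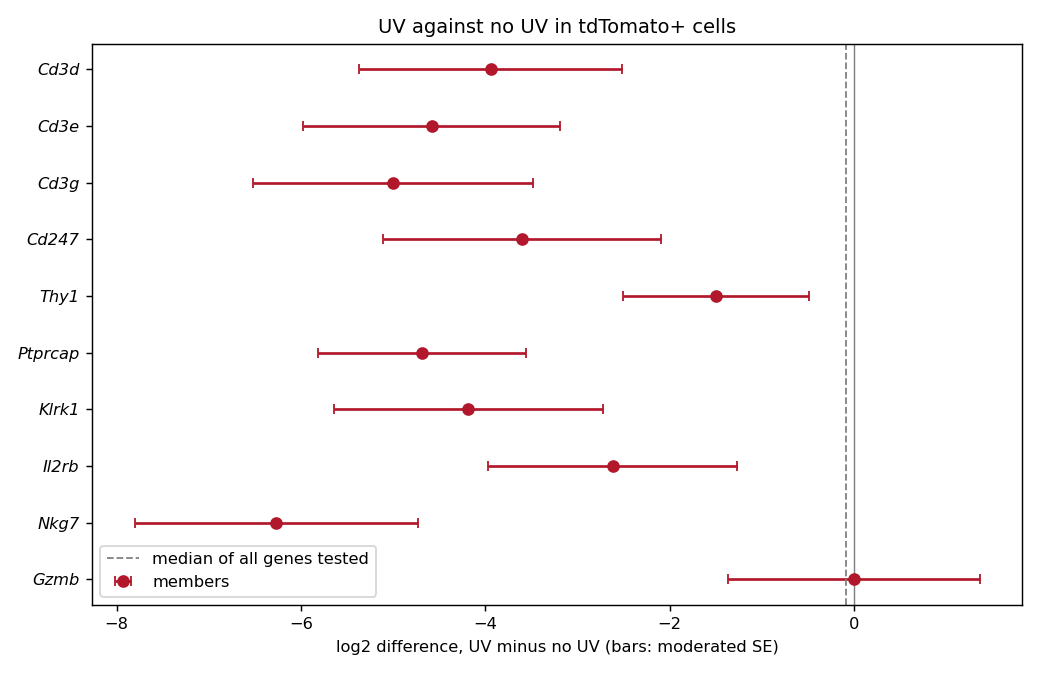
Log2 difference, UV minus no UV, in tdTomato+ cells for each gene, with bars for the moderated standard error and a dashed line at the median of all tested genes, -0.09. The 9 genes other than Gzmb lie between -6.27 and -1.50.

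Other lineages were set beside this difference. The CD3 chains summed to 8.62 and 0.121 RPM in tdTomato+ cells with UV, against 41.4 and 45.6 without UV, and the UV level was 9.81% of the level without UV. That percent was 19.3% without the second UV library and 0.272% without the first, a calculation added, like the others that leave out a library in this paragraph and the next, after the data were seen. The pan leukocyte markers without Arhgdib, a gene that EGFP+ libraries also held, stood at 131% of the level without UV, with 132.5 and 34.0 RPM with UV, against 89.3 and 35.9 without UV, so these groups overlapped and the percent ran from 53.8% to 223% with single tdTomato+ libraries left out. The whole list stood at 74.1%, also with overlap, and ran from 52.3% to 112%. Per 1000 reads of the list without Arhgdib, the CD3 chains had 65.0 and 3.55 reads with UV, against 464 and 1272 without UV; this scale was added after the data were seen. Per 1000 reads of the whole pan leukocyte list they had 28.1 and 0.724 with UV, against 96.8 and 225 without UV. On each scale both UV libraries lay below both libraries without UV. Fibroblast markers stood at 69.1% and keratinocyte markers at 82.1% of the level without UV, and melanocyte markers at 827% (1290% without the first library without UV). The part of the melanocyte marker shift in the lower CD3 levels was not tested.

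**Figure D4:**
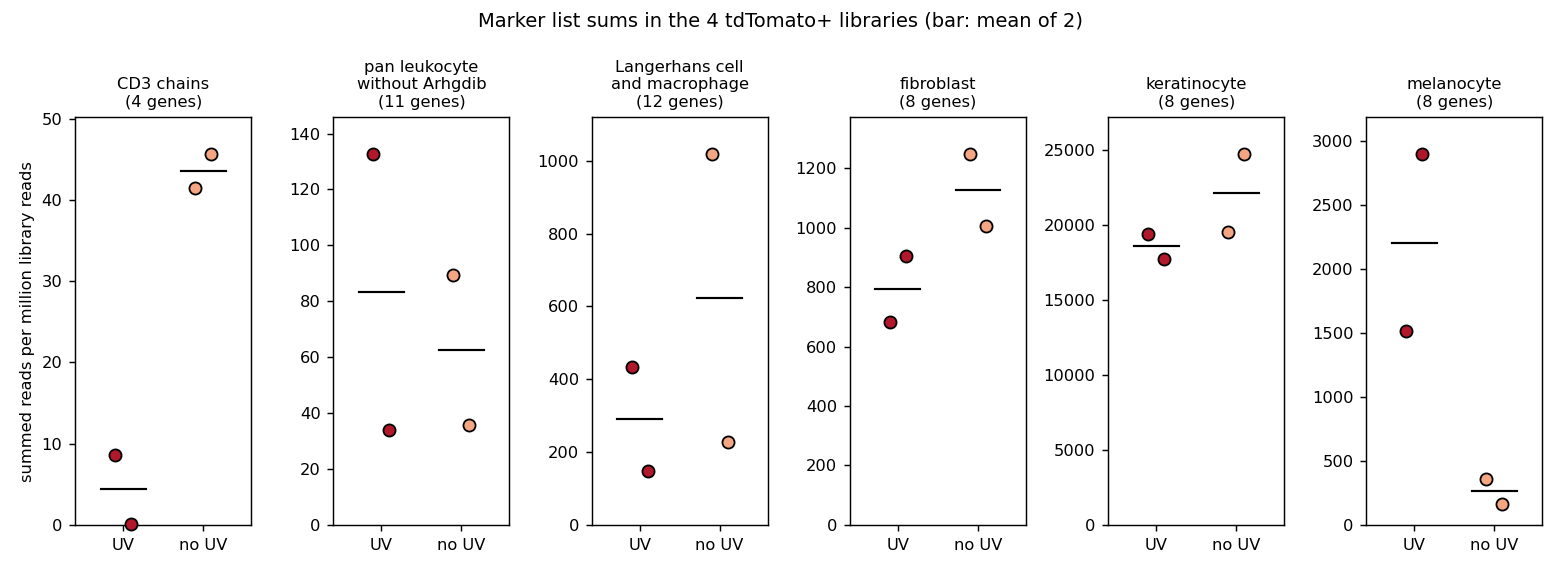
Summed RPM of the 4 CD3 chain genes and of 5 marker lists in the 4 tdTomato+ libraries, UV left and no UV right, each point a library and each bar the mean of 2, with a separate linear axis from 0 in each panel. The CD3 chains lie at 8.62 and 0.121 with UV and at 41.4 and 45.6 without UV, while the pan leukocyte points overlap.

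Langerhans cells are the other resident immune cells of the epidermis. Their defining marker Cd207, which encodes langerin, had 0 reads in tdTomato+ cells with UV and 1455 without UV, at least 611-fold lower (-9.18 ± 1.13, adjusted p = 0.0211, limma). Of these reads 1265 came from mouse 1 and 190 from mouse 2, and without the library of mouse 1 the bound was at least 196-fold. The 12 Langerhans cell and macrophage markers together had 432.8 and 148.3 RPM with UV and 1017 and 227 without UV, so the groups overlapped. The sum with UV was 46.3% of that without UV, or 123% without the library of mouse 1. Single markers split. Cd207, H2-Ab1, H2-Aa, H2-Eb1 and Cd74, 5 of the 12, lay lower with UV without overlap, against 24.5% of tested genes. Mrc1 (4.32) and Cd68 (1.62), 2 of the 12, lay higher without overlap, against 3899 of 18070 tested genes. Only Cd207 passed the test. Krt1 and Krt10, keratins of the suprabasal epidermis, changed by -7.98 ± 0.80 and -4.95 ± 0.37, and Cma1, a mast cell protease, by 5.16 ± 0.79 (adjusted p = 0.0133, 0.0101 and 0.0374). The other mast cell genes tested did not pass. Cpa3 had 0 reads with UV and 7 without, and Ms4a2 stood at 0.32 ± 0.85. The part of the Cd207, keratin and Cma1 changes in the lower fitted values of the members with UV was not tested.

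In EGFP+ cells, 0 of the 10 genes changed with UV, against 0.0166% of tested genes, and edgeR and DESeq2 called 0 too. At an unadjusted p under 0.05 (limma) there were 0 of 10, against 7.09% of tested genes lower and 3.28% higher. Members other than Gzmb had at most 3 reads over all EGFP+ libraries and could hardly pass, so nothing is read from these counts. Gzmb, the only member above 3 reads, stood at -0.97 ± 1.37 (adjusted p = 0.874, limma), and its sign turned without either the second UV or the second no UV EGFP+ library. The difference between the UV changes of EGFP+ and tdTomato+ cells passed for 0 of 10 genes, against 0.00553% of tested genes, and 3 of 10 were higher at an unadjusted p under 0.05, against 3.79% of tested genes. It was 6.27 ± 2.17 for Nkg7 (0.404) and 4.36 ± 1.59 for Ptprcap (0.432). edgeR and DESeq2 called 0. Since members other than Gzmb had at most 3 reads over all EGFP+ libraries, the floor there fixes most of this difference, which restates the one in tdTomato+ cells (-6.27 for Nkg7) and is no separate comparison of the cell populations.

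The make-up of the CD3 reads could be given for 3 tdTomato+ libraries. Cd3g made up 47.2% (39.2% to 55.3%, 95% Wilson interval) in the first UV library, against 58.6% (54.8% to 62.3%) and 68.0% (63.9% to 71.9%) without UV. Cd247 made up 22.9% (16.8% to 30.4%) with UV, against 13.7% (11.3% to 16.5%) and 7.06% (5.14% to 9.62%) without UV. The intervals cover counting error only, and 1 library gives no spread with UV.

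Genes that act with the members in T cells followed in part. The count of each list stands against 19.2% of all tested genes lower and 9.66% higher in EGFP+ than in tdTomato+ cells over all mice. Of 23 tested genes of T cell receptor signalling, 9 were lower and 1 was higher in EGFP+ cells. Rasgrp1, which activates Ras below the receptor, was at -5.81 ± 0.80, Cd5, an inhibitory coreceptor, at -5.03 ± 0.82 and Prkcq, protein kinase C theta, at -4.35 ± 0.77 (adjusted p = 0.000933, 0.0022 and 0.00344, limma). Fyn, a kinase used in many cell types, was higher at 1.63 ± 0.27. Of 6 tested coreceptors and genes of alpha beta T cells 0 passed. Cd8b1, the CD8 beta chain, averaged 3.24 normalized reads in EGFP+ cells and 0 in tdTomato+ cells.

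Of 13 tested genes of gamma delta and skin resident T cells, 4 were lower and 1 higher in EGFP+ cells, against 19.2% and 9.66% of all tested genes, and nothing is read from so small a count. Gata3, which keratinocytes also express, was at -8.38 ± 0.71, Zbtb16, a factor of innate-like T cells, at -4.29 ± 0.81 and Rora, a nuclear receptor, at 1.28 ± 0.20. With UV, 1 of the 13 changed in tdTomato+ cells, against 0.559% of tested genes: Ahr, a receptor needed to keep dendritic epidermal T cells in mouse skin that other skin cells also carry, fell by 2.44 (SE 0.40, adjusted p = 0.0476). Of 7 cytotoxic genes 4 were lower in EGFP+ cells: Srgn (-6.54), which packs granules in many blood cells, Gzmc (-3.85), Ctsw (-4.91), a protease of cytotoxic lymphocytes, and Prf1 (-2.79). Ctsc, which matures granzymes and is made by other cells too, rose by 1.87 in tdTomato+ cells with UV (adjusted p = 0.02).

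Of 14 NK receptor and adaptor genes 4 were lower in EGFP+ cells, against 19.2% of all tested genes, among them Hcst (-3.71), the DAP10 adaptor of NKG2D, and Tyrobp (-5.90) and Fcer1g (-5.67), adaptors that myeloid cells share. The list summed to 113.8 and 24.96 RPM in tdTomato+ cells with UV, against 50.92 and 30.57 without UV, so the groups overlapped. Most of this sum was Fcer1g, at 622 normalized reads with UV and 371 without, and Tyrobp, at 379 and 123. With UV, 9 of the 14 genes had a negative difference in tdTomato+ cells, against 9768 of 18070 tested genes, and 0 passed. Among the single receptors, Klrc1 had 0 reads with UV and 43 without, and Klrk1 had 22 and 140. Of 3 tested NKG2D ligands 2 were lower in EGFP+ cells: H60c, a skin ligand of NKG2D, at -7.46 ± 0.70, with 1 EGFP+ read against 894 tdTomato+ reads, and Ulbp1 at -2.65 ± 0.76 (adjusted p = 0.000124 and 0.0306). With UV the ligand sum stood at 32.6% of the level without UV in tdTomato+ cells, and 0 of the 3 passed. H60c, most of that sum, averaged 114.6 normalized reads with UV and 386 without, while Ulbp1 went the other way, at 12.5 and 3.91. Of 13 genes of the common gamma chain cytokine family, 4 were lower and 2 higher: Il7, the growth factor of gamma delta T cells made by keratinocytes, was at -6.12 ± 0.76, Il15ra, which presents IL-15, at -4.92 ± 0.93, and the signalling factors Stat5a and Stat5b at 2.23 ± 0.27 and 2.43 ± 0.31.

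Among the markers of other cell types, 8 of 12 pan leukocyte, 7 of 12 Langerhans cell and macrophage, 3 of 7 neutrophil and mast cell, 0 of 5 B cell and 7 of 8 fibroblast genes were lower in EGFP+ cells, and 0 of these were higher. A group of 5 genes followed the mean of the CD3 chains most closely over the 8 libraries, among 12198 genes that averaged 20 or more in tdTomato+ cells. They were Ctsw (Pearson r = 0.996), Pla2g4f (0.996), Clec2f (0.995), Trat1 (0.994) and Prss35 (0.990). Trat1, an adaptor bound to the T cell receptor complex, had 15.6 and 0 normalized reads in tdTomato+ cells with UV and 137.9 and 69.9 without UV. The 8 points share their libraries and fall mostly into libraries with and without CD3 reads, so r describes that split.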

How the data were processed

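Libraries were made with an unstranded poly(A) kit (TruSeq RNA v2), per the labels' protocols, and the submitters' processing notes name TopHat2 2.0.12, Cufflinks 2.2.1, DESeq2 1.14.1, FastQC and the build mm10. How reads were assigned to genes is not stated there.

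Per the file headers, the authors' deposited signal is a column of normalized reads for each library. All 195368 values were within 0.01 of a whole read times 1 factor per library (100%), so read counts were recovered. The table also holds the authors' deposited log2 fold changes with errors, a score, p-values and adjusted p-values for EGFP+ against tdTomato+, per the file headers; these were not used for any result. Of 24421 genes, 3897 had no reads.

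limma 3.58.1 (R 4.3.3) was run on log2(value + 1) with a mean per group in 1 fit of all 8 libraries, a trend, and 4 residual degrees of freedom, for the 18070 genes that averaged 1 or more in any group. Values were adjusted by Benjamini-Hochberg over all genes tested, with a threshold of 0.05, for each of 6 comparisons: EGFP+ against tdTomato+ (all mice, with UV, without UV), UV against no UV in each population, and the difference of those. An exact permutation test of 2 against 2 cannot go below p = 0.333. Where a group had 0 reads its level was bounded by 3 reads over the group, and 1 to 3 reads gave a ratio with an exact 95% interval. The script was tested on simulated data in which only genes well above the floor were changed, so that test does not bear on the member calls.

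The members and the marker lists were chosen with earlier results of these data known. Beside the members, up to 4 genes per list with the smallest p in EGFP+ against tdTomato+ cells could be named, with any list gene called for UV and the 5 genes most like the CD3 chains.

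Both populations of a mouse form a pair, per the labels' mouse numbers. Deviations of a mouse from its group means correlated between its EGFP+ and tdTomato+ libraries at 0.0562 across genes for the UV mice and 0.0873 for the mice without UV. Alternatives were quantile normalization, rescaling, another pseudocount, no filter and a stricter one, edgeR 4.0.16 and DESeq2 1.42.0 on recovered reads, mouse as a block, only the libraries compared, and each library left out; leaving out mouse 1 was added after the data were seen.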

Additional observations from a re-analysis of the deposited data

How the results depend on the processing

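Of 847 member values recomputed under 18 alternative settings, 735 stayed called or stayed uncalled, without turning sign. Another 96 lost the call, 7 gained it and 9 turned sign. Only values called in the main test could lose the call, and the 735 include many that were not called there. Among the 735, 6 values were exactly 0: with UV, Cd3e, Cd247, Klrk1 and Il2rb without UV tdTomato replicate 1 and Gzmb without UV EGFP replicate 1, and without UV, Gzmb without no UV EGFP replicate 2. With a pseudocount of 0.1 the members lower in EGFP+ cells were 5 over all mice (8 in the main test) and 5 without UV (9). Leaving out single libraries gave 2 to 8 over all mice, 1 to 9 without UV, and 1 to 4 with UV. Without both libraries of mouse 1 there was 1 over all mice and 1 without UV. With UV, edgeR and DESeq2 on recovered reads each called 2 members (1 in the main test). For UV in tdTomato+ cells DESeq2 called 1 member. With mouse as a replicate block, the pairing gave 8 members over all mice, 1 with UV, 8 without UV and 0 for the difference between UV changes, so the block ended the call of Ptprcap without UV (adjusted p = 0.0727) and no other member's call. The cause of these shifts was not tested.

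Genes called moved more. Over all mice 5217 were called, and 3463 to 6594 with single libraries left out. With UV 3240 were called, 1992 with only the libraries compared, 1119 without mouse 1 and 993 to 4952 with single libraries left out. Without UV 3468 were called, and 1398 to 4494 with single libraries left out. For UV in EGFP+ cells 3 were called, 0 by quantile normalization, 1 with a pseudocount of 0.1, 120 by edgeR, 361 by DESeq2, 0 with only the libraries compared, 818 without mouse 1 and 0 to 1604 with single libraries left out. For UV in tdTomato+ cells 101 were called, 29 with a pseudocount of 0.1, 240 by edgeR, 629 by DESeq2, 183 with only the libraries compared, 2006 without mouse 1 and 0 to 1772 with single libraries left out. For the difference between UV changes 1 was called, 4 by quantile normalization, 0 by rescaling, a pseudocount of 0.1 or no filter, 75 by edgeR, 291 by DESeq2, 2064 without mouse 1 and 0 to 1297 with single libraries left out.

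Quantile normalization and rescaling without the 20 most abundant genes moved the median of all genes in EGFP+ against tdTomato+ by 0.366 and 0.255 over all mice, and the split of higher and lower genes to 2618 and 2671 and to 2634 and 2877, against 1746 and 3471. With UV the split was 1251 and 1639 and 1255 and 1980, against 909 and 2331, and without UV 1809 and 1785 and 1780 and 1794, against 1206 and 2262. Signs turned for members near the floor: with UV, Cd3d stood at 0.54 by quantile normalization and, with single libraries left out, between -3.88 and 0.53, and Nkg7 between -4.19 and 0.44, both positive without UV tdTomato replicate 1. For UV in EGFP+ cells and for the difference between UV changes, Gzmb ran from -3.13 to 1.19 with single libraries left out, 0.22 without UV EGFP replicate 2 and 1.19 without no UV EGFP replicate 2, and for the difference Thy1 stood at -0.19 with a pseudocount of 0.1 and -0.76 by edgeR.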
